A study of Felis catus with 12 samples.

Results

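The genes described here are TTN, which encodes the giant protein titin, and 9 genes whose products build the Z-disc and M-band of the heart muscle sarcomere: TCAP, CSRP3, ACTN2, LDB3, MYOZ2, NRAP, MYOM1, MYPN and NEBL. They were chosen by name, with earlier results of these data known. All 10 are among the 30785 genes listed, and all 10 passed the filter on reads (at least 10 reads in at least 3 libraries), which left 8820 genes for testing. RNA of the left ventricular free wall, collected after death, was read directly on Oxford Nanopore flow cells, so that RNA molecules were sequenced without conversion to cDNA. There was 1 library for each of 12 domestic cats (Felis catus), with 4 libraries on each of 3 flow cells, and a replicate is therefore a separate cat. The cats on flow cell A were numbers 11, 23, 30 and 31. Those on flow cell B were 10, 15, 35 and 36, and those on flow cell C were 22, 29, 37 and 38. Numbers 22 and 29 are as labelled, but the study does not list these cats among those sequenced. The cats were privately owned patients, with no induced treatment, so that genotype, breed, age and disease vary between them. The labels give the flow cell but not the cause of death, and no comparison of outcomes was made. Each library is a piece of whole tissue, in which fewer cells of a type and less RNA per cell cannot be told apart.

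Titin spans from the Z-disc at the edge of the sarcomere to the M-band at its centre and acts as a molecular spring. At the Z-disc its end is capped by telethonin (TCAP) and anchored among alpha-actinin (ACTN2), cypher (LDB3), calsarcin-1 (MYOZ2), muscle LIM protein (CSRP3), myopalladin (MYPN) and nebulette (NEBL), a set of scaffolds that cross-links actin filaments and is linked to stretch sensing and signalling. NRAP sits at the ends of myofibrils and takes part in their assembly, and at the M-band myomesin (MYOM1) cross-links titin and myosin. Several of these genes are known as disease genes of inherited cardiomyopathy in people.

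The libraries held 789257 to 2263110 reads on genes (median 1221712), and the 10 genes together took 2.07% to 3.19% of them (2.49% ± 0.380, SD, n = 12). Values below are reads divided by 1 size factor per library, the scale on which they were deposited, and a log2 difference is on the log2(value + 1) scale. Because long transcripts are read from their poly(A) end and transcript lengths were not used here, values of different genes were not compared as levels. The tissue carried the markers of ventricular heart muscle: the 7 cardiomyocyte markers summed to 110841 to 239570 per library, and the atrial light chains MYL4 and MYL7 to 620 at most. The libraries of cats 11 and 31 stood apart. CNN1, a smooth muscle gene, had 537 and 551 reads in them and at most 57 in any of the other 10 libraries, and the comparison of flow cell A with the others is therefore also given without both for each of the 10 genes.

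**Figure D1:**
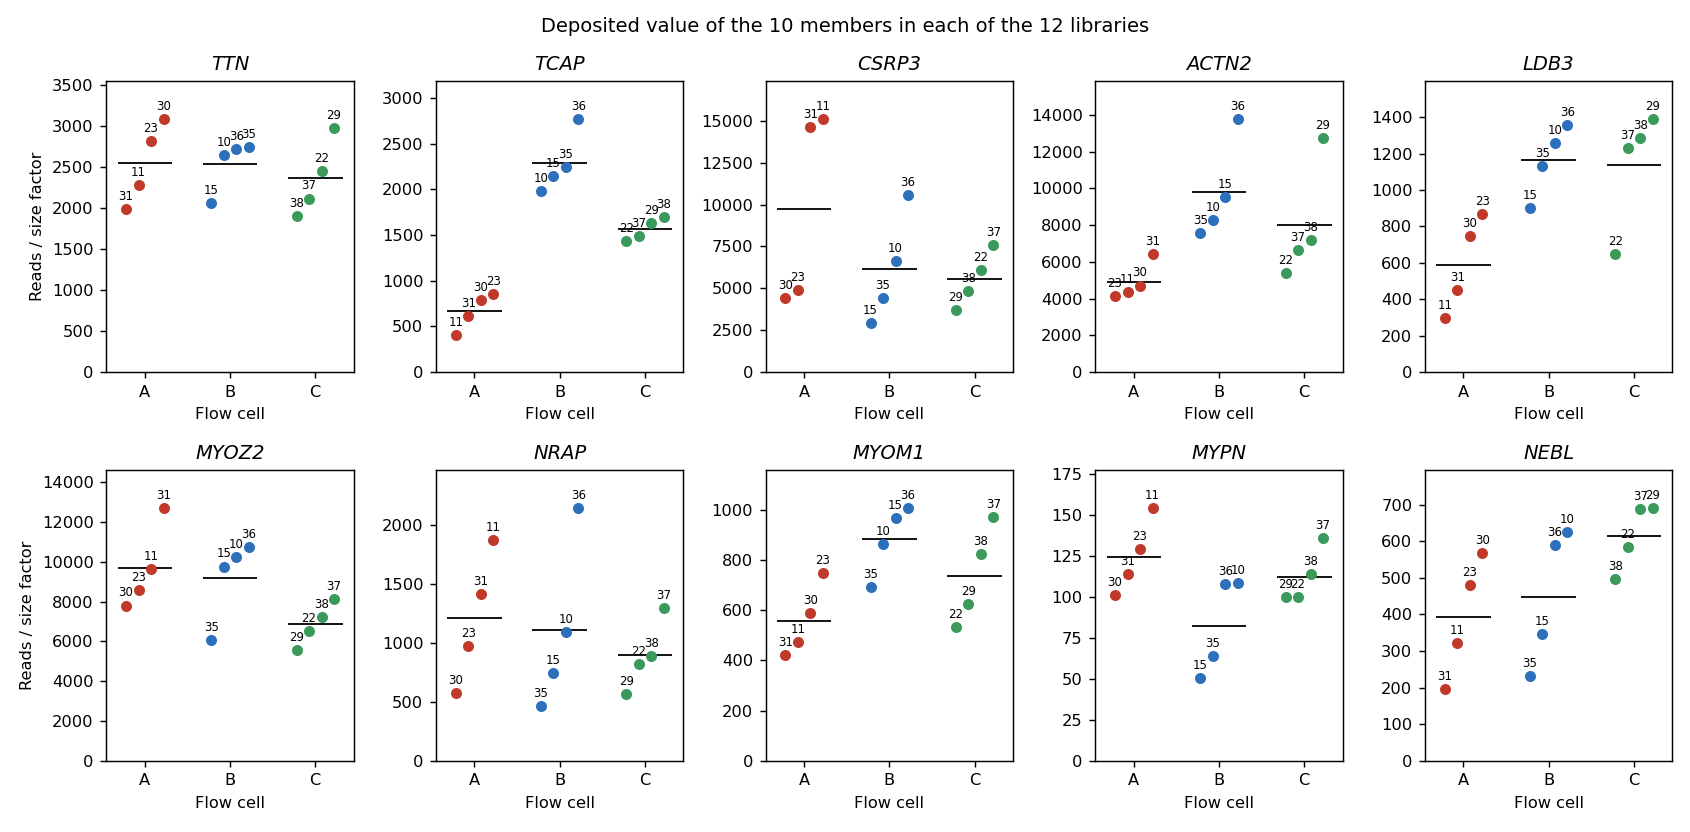
Deposited value (reads divided by the size factor of the library, linear axis from 0) of each of the 10 genes, with 1 point per library, the cat number above it, colour by flow cell and a bar at the mean of 4 libraries. TTN lies between 1905 and 3081 in all 12 libraries, TCAP reaches at most 853 in the 4 libraries of flow cell A and starts at 1434 in the other 8, and CSRP3 and NRAP are highest in cats 11, 31 and 36.

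Titin was the steadiest of the 10. In flow cell A its value was 2282 in cat 11, 2817 in cat 23, 3081 in cat 30 and 1986 in cat 31. In flow cell B it was 2642 in cat 10, 2055 in cat 15, 2743 in cat 35 and 2710 in cat 36. In flow cell C it was 2452 in cat 22, 2972 in cat 29, 2113 in cat 37 and 1905 in cat 38. The 3 flow cells overlapped throughout, and the highest library was 1.62-fold above the lowest. The coefficient of variation over the 12 libraries was 16.3%, against 2.03% from counting error alone. Only 6.15% of the 1511 tested genes with a mean at least that of MYPN, the least abundant of the 10, had a lower coefficient, and the median of those genes was 30.02%. The coefficients of the other 9 ran from 24.6% (MYOZ2) and 26.7% (MYPN) through 27.9% (MYOM1), 35.4% (NEBL), 38.2% (LDB3), 41.3% (ACTN2) and 48.2% (TCAP) to 49.1% (NRAP) and 57.8% (CSRP3). Titin's transcript has many splice forms, which a count per gene does not separate.

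TCAP, whose product telethonin holds the ends of a pair of titin molecules together at the Z-disc, differed most between flow cells. Its value in flow cell A was 406 in cat 11, 853 in cat 23, 792 in cat 30 and 614 in cat 31. In flow cell B it was 1978 in cat 10, 2151 in cat 15, 2242 in cat 35 and 2772 in cat 36. In flow cell C it was 1434 in cat 22, 1634 in cat 29, 1485 in cat 37 and 1703 in cat 38. All 4 libraries of flow cell A were below the other 8, a separation in this direction found for 221 of the 8820 genes (2.51%), and all 4 of flow cell B were above all 4 of flow cell C, which held for 190 of the 8820 genes (2.15%). With limma and Benjamini-Hochberg adjustment over 8820 genes, TCAP was 2.93-fold lower on flow cell A than on the mean of the others (log2 difference -1.55, SE 0.20, adjusted p = 0.00232). Per unit of titin, TCAP was 0.178 to 0.309 in flow cell A and 0.550 to 1.05 in flow cells B and C. The flow cell is also the set of cats on it, so the run and the animals cannot be told apart.

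LDB3, which encodes the alpha-actinin partner cypher (also known as ZASP), was the other gene of the 10 that passed the test on flow cell A. Its value there was 298 in cat 11, 866 in cat 23, 749 in cat 30 and 449 in cat 31. On flow cell B it was 1260 in cat 10, 901 in cat 15, 1130 in cat 35 and 1357 in cat 36. On flow cell C it was 648 in cat 22, 1390 in cat 29, 1230 in cat 37 and 1283 in cat 38. The groups overlapped, since cat 22 of flow cell C was below cats 23 and 30 of flow cell A. LDB3 was 2.06-fold lower on flow cell A (log2 difference -1.04, SE 0.28, limma with Benjamini-Hochberg adjusted p = 0.0374), and this call was lost when any 1 of 7 libraries (cats 10, 11, 29, 31, 36, 37 and 38) was left out and with edgeR (adjusted p = 0.0582).

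ACTN2, the actin cross-linker that forms the backbone of the Z-disc, was 4128 to 6428 on flow cell A, 7558 to 13778 on flow cell B and 5378 to 12753 on flow cell C. Its highest values were in cat 36 (13778) and in the library labelled cat 29 (12753). The log2 difference of flow cell A from the others was -0.81 (95% CI -1.33 to -0.30, limma with Benjamini-Hochberg adjusted p = 0.0634), which did not pass the test. It passed with DESeq2 on the recovered reads (adjusted p = 0.0148) and when only genes with at least 10 reads in all libraries were tested (adjusted p = 0.0398).

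Of the 8820 genes tested, 474 were called between flow cell A and the others, 314 lower (3.56%) and 160 higher (1.81%). Of the 10 genes here, 2 were called lower (TCAP and LDB3), none higher, and 8 did not pass the test. The median log2 difference was -0.21 over the 10 genes and 0.03 over all genes tested. MYOM1 had a log2 difference of -0.54 (95% CI -0.98 to -0.10) and NEBL of -0.47 (95% CI -1.09 to 0.15). Those of CSRP3 (0.62), MYPN (0.39), NRAP (0.29) and MYOZ2 (0.28) were positive, with intervals that included 0 and adjusted p from 0.338 to 0.688 (limma, Benjamini-Hochberg). For TTN the difference was 0.05, with a 95% CI from -0.35 to 0.44.

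**Figure D2:**
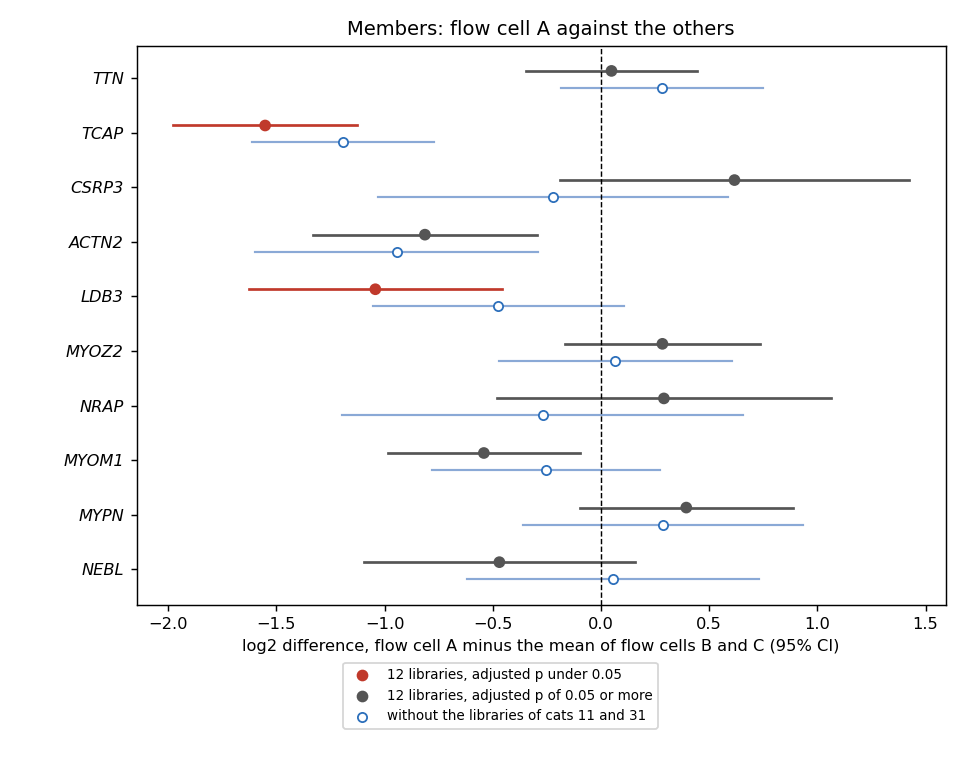
Log2 difference (x axis) of flow cell A from the mean of flow cells B and C for each of the 10 genes (y axis), with 95% confidence intervals. Filled points use all 12 libraries (red for an adjusted p under 0.05) and open points leave out cats 11 and 31. TCAP and LDB3 are red at -1.55 and -1.04, and without both cats LDB3 is at -0.47 while TCAP is at -1.19.

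Without the libraries of cats 11 and 31, limma called 0 of the 8820 genes on flow cell A after Benjamini-Hochberg adjustment, and 911 genes had an unadjusted p under 0.05. TCAP was then at a log2 difference of -1.19 (95% CI -1.61 to -0.77, adjusted p = 0.0753), and both remaining libraries of flow cell A (792 and 853) were below the other 8, a separation that 5.16% of all genes showed. Per unit of titin these 2 libraries were at 0.257 and 0.303. ACTN2 was at -0.94 (95% CI -1.60 to -0.29, adjusted p = 0.255), LDB3 at -0.47 (adjusted p = 0.592), MYOM1 at -0.25, TTN at 0.28, MYPN at 0.29 and MYOZ2 at 0.065, and CSRP3 (-0.22), NRAP (-0.27) and NEBL (0.056) had the opposite sign to that with all libraries. Without cat 11 alone 54 genes were called and without cat 31 alone 165, with TCAP among them both times.

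Some markers of several cell types differed on flow cell A, where 3.56% of all genes tested were called lower and 1.81% higher. The part of these markers in the differences above was not tested. Of the 7 cardiomyocyte markers, 5 were called lower (TNNT2, TNNI3, PLN, TNNC1 and MYL3), with a summed value of 110841 to 183269 on flow cell A and 112597 to 239570 on the others. MYL2 (log2 difference -0.16), the largest part of each sum, and ACTC1 (0.59) were not called. Of the 6 fibroblast markers, 3 were called higher (COL1A1, COL1A2 and COL3A1), with sums of 1121 to 3193 against 276 to 1757. DCN (log2 difference 0.44), LUM (0.83) and PDGFRA (0.65) were not called. Of the 4 smooth muscle markers, 2 were called higher (TAGLN and CNN1), with sums of 369 to 1271 against 88.5 to 286. ACTA2 (log2 difference 0.36) and MYH11 (0.14) were not called. MYH11 was 3.86 in cat 11 and 2.39 in cat 31, within the 1.36 to 17.6 of the other libraries. In cats 23 and 30, the libraries of flow cell A other than those of cats 11 and 31, the sums were 114891 and 125259 for cardiomyocyte, 1308 and 3193 for fibroblast and 369 and 445 for smooth muscle markers. Among the endothelial and the leukocyte markers, 4 of each, no gene was called. The adipocyte markers ADIPOQ, PLIN1 and CIDEC did not pass the filter on reads (summed value 1.34 to 12.4), and of the skeletal muscle markers CKM passed, a creatine kinase that heart muscle also makes.

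Between flow cells B and C none of the 10 genes passed the test. limma called 0 of the 8820 genes (0%), with 696 at an unadjusted p under 0.05, while edgeR called 0 and DESeq2 called 23, none of them among the 10. TCAP was 1.45-fold higher on flow cell B, with a Benjamini-Hochberg adjusted p of 0.583 in limma. Fibroblast markers moved between these flow cells as well, and their part was not tested: the 6 summed to 276 to 676 on flow cell B and 853 to 1757 on flow cell C, and none was called. For the other 9 genes the log2 difference lay between -0.55 (NEBL) and 0.40 (MYOZ2), and the 95% CI of each included 0.

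CSRP3 and NRAP shared another pattern, with the same 3 libraries highest, on more than 1 flow cell, and MYOZ2 followed it only in part. CSRP3 encodes muscle LIM protein, a Z-disc protein linked to stretch sensing. Its value was 15110 in cat 11, 14633 in cat 31 and 10593 in cat 36, and 2934 (cat 15) to 7586 (cat 37) in the other 9. NRAP, the nebulin-related anchoring protein, was 2142 in cat 36, 1869 in cat 11 and 1410 in cat 31, and 466 (cat 35) to 1296 (cat 37) in the other 9. For both genes the libraries of these 3 cats, picked out after the values were seen, were the 3 highest of the 12, as they were for 1.67% of all genes. MYOZ2, which encodes the calcineurin-binding protein calsarcin-1, was 12711 in cat 31, 10713 in cat 36 and 10227 in cat 10, followed by 9757 in cat 15 and 9618 in cat 11, and its lowest library was that labelled cat 29 (5555).

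With all libraries, some of the 10 genes fell into groups that co-varied, while TTN and NEBL followed neither group closely. Over 12 libraries, Pearson's r of log2 values was 0.86 for TCAP with LDB3, 0.79 for LDB3 with MYOM1, and 0.76 for TCAP with both ACTN2 and MYOM1. In the other group r was 0.84 for CSRP3 with NRAP, 0.74 for MYOZ2 with NRAP, 0.65 for CSRP3 with MYPN and 0.62 for CSRP3 with MYOZ2. Across the groups r was negative for CSRP3 with LDB3 (-0.57), TCAP with MYPN (-0.57) and TCAP with CSRP3 (-0.50). These are descriptions over 12 libraries that share flow cells and 1 size factor each, and the median r of the 45 pairs was 0.02. With each flow cell centred on its mean, TCAP with LDB3 (0.83) and CSRP3 with NRAP (0.85) stayed at or above 0.8, while TCAP with ACTN2 was at 0.25. In that setting ACTN2 with LDB3 was at 0.28, TCAP with MYOM1 at 0.49 and LDB3 with MYOM1 at 0.64. Without cats 11 and 31, CSRP3 with NRAP was at 0.83 and TCAP with LDB3 at 0.59, and the negative values of CSRP3 with LDB3 and TCAP became positive (0.26 and 0.23). The division into groups did not hold as a whole in that setting. Within the groups, r was 0.82 for TCAP with ACTN2, 0.72 for ACTN2 with LDB3 and 0.72 for MYOZ2 with NRAP. For CSRP3 with MYOZ2 it was 0.41. MYOM1 had an r of 0.74 with MYOZ2 and 0.67 with NRAP, above its 0.57 with LDB3 and 0.53 with TCAP. Of the 45 pairs, 34 were positive, against 23 with all libraries. TTN had its highest r with NEBL (0.36) with all libraries. Centred on flow cells, TTN was at 0.58 with NEBL, 0.47 with LDB3 and -0.67 with MYOZ2. On reads without scaling TTN was at 0.72 with MYPN, against -0.03 on the scaled values. Without scaling 38 of the 45 pairs were positive, with a median r of 0.44.

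**Figure D3:**
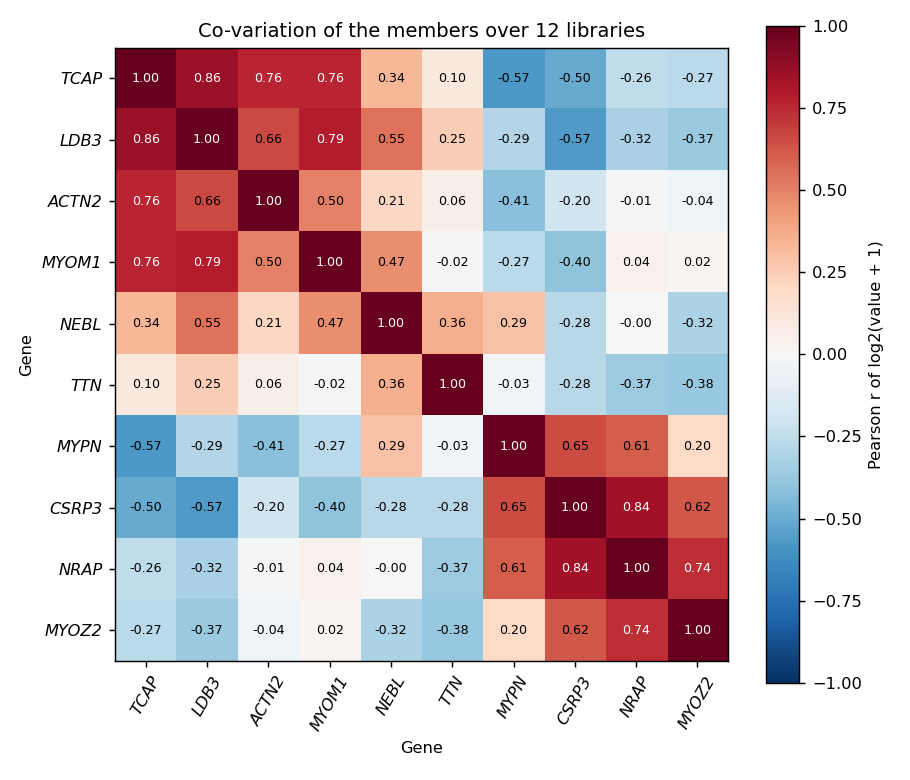
Pearson's r of log2(value + 1) between each pair of the 10 genes over 12 libraries, on a scale from -1 (blue) to 1 (red). A red block of TCAP, LDB3, ACTN2 and MYOM1 (TCAP with LDB3 0.86) and another of CSRP3, NRAP and MYOZ2 (CSRP3 with NRAP 0.84) are joined by values near or below 0, and TTN is pale throughout.

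The last 3 genes are MYOM1, MYPN and NEBL. MYOM1, the myomesin that links titin to myosin at the M-band, was 420 to 748 on flow cell A, 693 to 1009 on flow cell B and 533 to 971 on flow cell C. MYPN, which encodes the titin and alpha-actinin partner myopalladin, had the fewest reads of the 10, with values of 101 to 154, 50.4 to 108 and 99.8 to 136 on the 3 flow cells. NEBL, the nebulette gene, was 196 to 569, 232 to 626 and 496 to 692, and its lowest library was that of cat 31. Each of these 3 genes overlapped between flow cell A and the others.

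Among genes with at least 10 reads in all 12 libraries, those most like TTN by Pearson's r of log2 values over the 12 libraries were LOC101099873 (0.87), SCARA5 (0.83), LOC111558695 (0.82), TIMP3 (0.81) and TMX4 (0.80), none of them a sarcomere gene by name. The mean log2 value of the 10 genes was most like FHL2 (0.84), a LIM protein that binds titin, then PPP2R2D (0.82), SEC11C (0.81), GCAT (0.79) and NDUFAF8 (0.78). Chosen after its values were seen, MYL3, the ventricular essential light chain of myosin, was most like TCAP (r = 0.98). MYL3 was 8579 to 14609 on flow cell A and 19412 to 37044 on the others, so all 4 libraries of flow cell A were below the other 8 for it as for TCAP.

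A list of 38 further genes of the Z-disc, the titin spring, the M-band and titin splicing was set beside the 10, of which 34 passed the filter on reads. Of all 8820 genes tested on flow cell A, 3.56% were called lower and 1.81% higher by limma after Benjamini-Hochberg adjustment. Of the 34 related genes, 1 was called lower and 5 higher, and 28 did not pass. The lower gene was MYOM2, the fast-fibre relative of myomesin, at a log2 difference of -0.93 (SE 0.26, adjusted p = 0.0446). ANKRD2, a stretch-responsive ankyrin repeat protein of the titin spring, was higher by 2.83 on the log2 scale (SE 0.56, adjusted p = 0.0103), with 3475 in cat 11 and 3682 in cat 31 against 55.2 to 1713 in the other 10 libraries. The PDZ-LIM adaptors of the Z-disc PDLIM7 (1.99, SE 0.45) and PDLIM3 (1.68, SE 0.33) were also higher. CRYAB, the small heat shock protein that binds titin, and TRIM55, a ubiquitin ligase of the M-band, completed the 5. By part of the sarcomere, 2 of 17 Z-disc genes and 2 of 6 stretch genes were higher, and of 10 M-band genes 1 was lower and 1 higher. Without cats 11 and 31 none of the 34 was called, nor was any of all 8820 genes tested. RBM20, which controls titin splicing, did not pass the test (log2 difference -0.69).

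**Figure D4:**
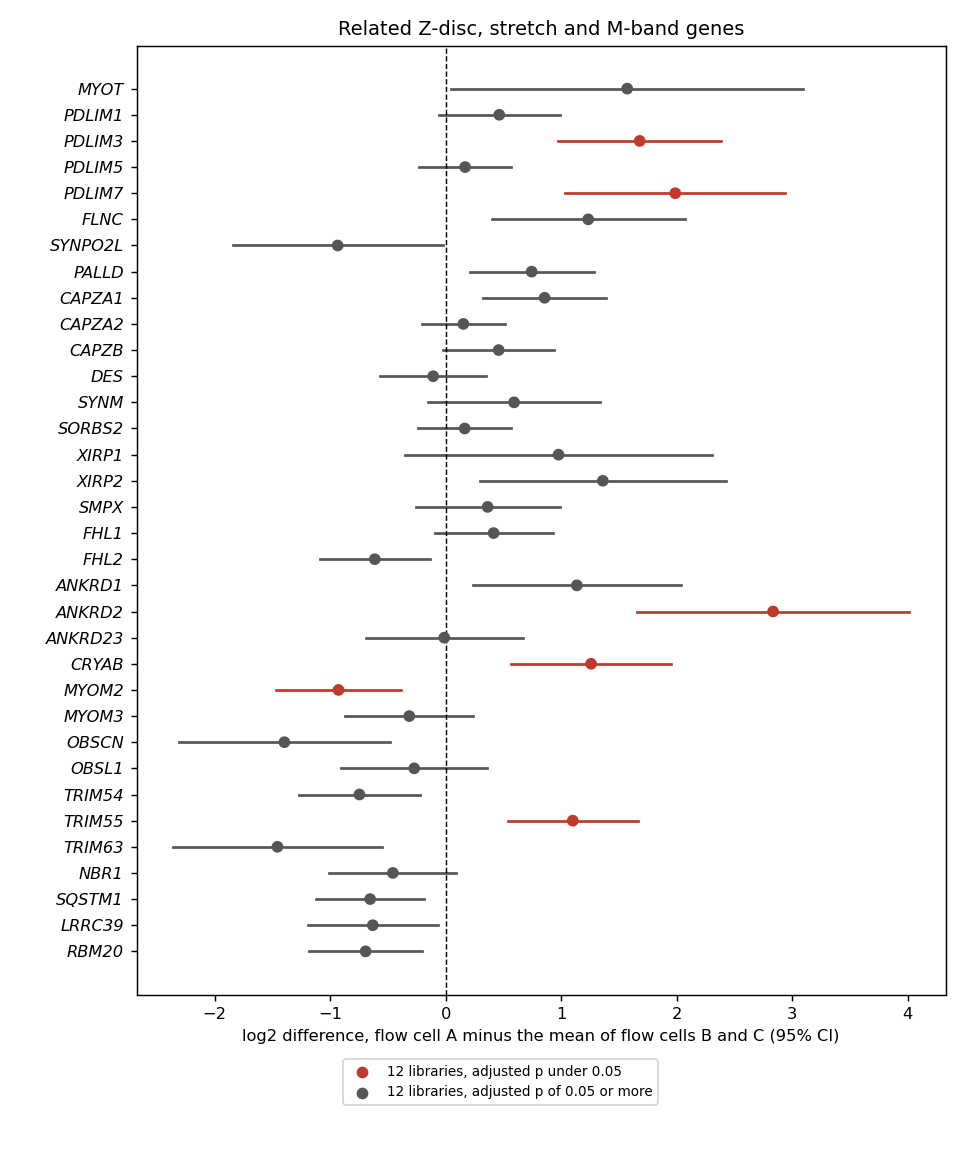
Log2 difference (x axis) of flow cell A from the mean of flow cells B and C, with 95% confidence intervals, for the 34 related genes that passed the filter on reads (y axis), red for an adjusted p under 0.05. The 5 red points to the right are PDLIM3, PDLIM7, ANKRD2 (2.83), CRYAB and TRIM55, and the red point to the left is MYOM2 (-0.93).

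The study ranked genes by their correlation with traits of each cat. Here this was done for age (9 cats), myocardial fibrosis percentage (8 cats) and adipocyte percentage of the tissue section (10 cats), matched by cat number. The libraries labelled cats 22 and 29 were not used for these, since their numbers are not among the study's list of sequenced cats. After Benjamini-Hochberg adjustment of the permutation p-values, 0 of the 8820 genes (0%) passed for any of the 3 traits, and a limma slope on each trait also called 0. Every rho of a gene that follows therefore failed the correction, as did Pearson's r over the same cats. The r centred on flow cells was tested for the 10 genes alone, and its p-values were not adjusted.

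With age, NRAP had a Spearman's rho of -0.867 (n = 9, exact permutation p = 0.00451, adjusted p = 0.812), and 21 of the 8820 genes had a lower rho. Its value was 1410 to 2142 in the 3 youngest cats (36, 31 and 11) and 574 to 1296 in the 6 others with an age. CSRP3 had a rho of -0.800 (n = 9, exact permutation p = 0.0138, adjusted p = 0.847), with 10593 to 15110 in the 3 youngest and 2934 to 7586 in the 6 others. For both genes the 3 youngest cats were above the 6 others, which held for 296 of the 8820 genes (3.36%). Pearson's r on the log2 scale was -0.844 for NRAP (exact permutation p = 0.00478) and -0.776 for CSRP3 (exact permutation p = 0.0168). The values were -0.633 and -0.676 once cats 30 and 15 were left out, and -0.662 and -0.790 once cats 30 and 36 were. Cats 15 and 36 are equally far from the median age. Centred on flow cells they were -0.856 (exact permutation p = 0.0243) and -0.880 (exact permutation p = 0.0347). Without cats 11 and 31, rho was -0.750 for NRAP and -0.714 for CSRP3 (n = 7, exact permutation p = 0.0663 and 0.0881).

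The relation with age depended on the labels of the libraries that were not used. With the libraries labelled cats 22 and 29 entered under the ages of those cats, rho was -0.345 for NRAP and -0.409 for CSRP3. The library labelled cat 29 would then be from the youngest cat, and its values were 562 for NRAP and 3681 for CSRP3, among the lowest. The study also lists as sequenced some cats whose numbers are on no library here. Entering the libraries labelled cats 22 and 29 under the ages of those cats was not tried. Total reads had a rho of -0.700 with age over the 9 cats, the summed endothelial markers 0.800 and the summed cardiomyocyte markers -0.533, and their part in the relation was not tested beyond a limma slope with log2 reads as a covariate. Per SD of age, the log2 slope of NRAP was -0.52 without and -0.58 with that covariate, and that of CSRP3 was -0.63 and -0.52. The Benjamini-Hochberg adjusted p of both genes was 0.955 without and 0.9996 with it. Of all genes, 225 (2.55%) had a negative and 191 (2.17%) a positive rho with age at an unadjusted p under 0.05, and of the 10 genes here 2 (NRAP and CSRP3) and 0. Of the 34 related genes, SMPX, a small muscle protein of the costamere, had such a p (rho -0.700). TTN had a rho of 0.333 with age and TCAP of -0.02.

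**Figure D5:**
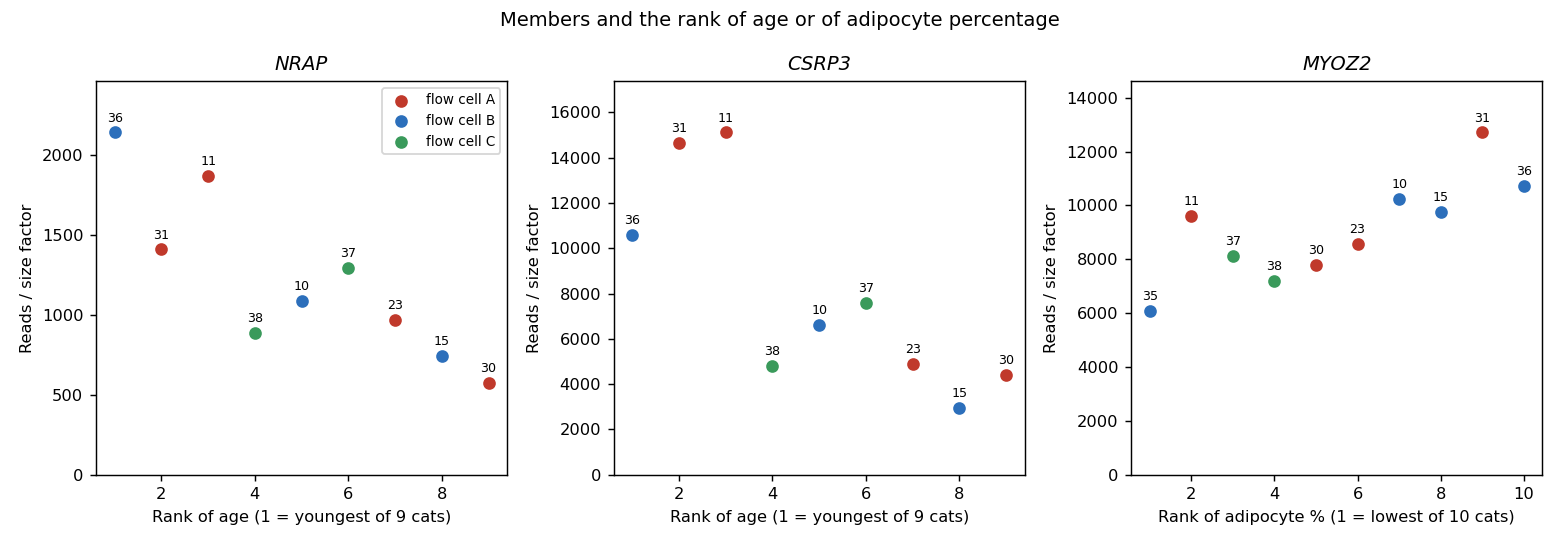
Deposited value (y axis, linear from 0) of NRAP and CSRP3 against the rank of age (1 is the youngest of 9 cats) and of MYOZ2 against the rank of adipocyte percentage (1 is the lowest of 10 cats), with 1 point per library, the cat number above it and colour by flow cell. NRAP and CSRP3 are highest in the 3 youngest cats (rho -0.867 and -0.800), and MYOZ2 is highest in cats 31, 36 and 10 (rho 0.818).

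With adipocyte percentage, MYOZ2 had a rho of 0.818 (10 cats, permutation p = 0.00589, Benjamini-Hochberg adjusted p = 1). Its Pearson's r was 0.746 (permutation p = 0.0122) and, with cats 36 and 31 left out, 0.692. Centred on flow cells, r was 0.767 (exact permutation p = 0.0503). On reads without scaling rho was 0.176. The summed cardiomyocyte markers had a rho of 0.733 with the same trait, and their part was not tested. The adipocyte marker genes were near 0 in every library, with a rho of 0.115 for their sum. Over all genes, 138 (1.56%) had a negative and 135 (1.53%) a positive rho at an unadjusted p under 0.05, and of the 10 genes 0 and 1. ACTN2 had a rho of 0.394, and centred on flow cells an r of 0.920 (exact permutation p = 0.00608, not adjusted), a value singled out after it was seen. Per the paper's methods, slides of cats 10, 15, 23, 30 and 36 were stained and scanned in a second batch. Their adipocyte percentage came from a classifier trained anew for that batch. The part of this batch in the relations with adipocyte percentage was not tested.

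With myocardial fibrosis, no gene of the 10 had an unadjusted p under 0.05. Their rho ran from -0.286 (LDB3) to 0.524 (MYOZ2), with a median of 0.0952 against 0 over all genes. Over all genes 123 (1.39%) had a negative and 127 (1.44%) a positive rho at that threshold, and of the 34 related genes 0 in either direction. TTN had a rho of -0.214 and TCAP of -0.238. A p that misses the threshold over 8 cats does not show that these genes do not vary with fibrosis.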

How the data were processed

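Left ventricular mRNA of 12 cats was sequenced directly with an Oxford Nanopore kit. The methods text of the paper names RNA002, and its list of resources names another version. Per the paper's methods, the authors used Guppy for base calling, a minimum read quality, minimap2 against felCat9 and featureCounts for reads per gene. Versions of minimap2 and featureCounts were not given in the sources used here. The deposited values are a signal, namely reads divided by 1 size factor per library. This was recognised because 100% of the values came out as whole reads within 1e-06 and because median-of-ratios factors computed again differed by a relative 2.44e-15 at most. The tests therefore used limma on log2(value + 1). edgeR and DESeq2 were run on the recovered whole reads as alternatives. Strand, gene length, coordinates and sequences were not used here, and genes that overlap or have near-identical copies could share reads.

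Of 30785 genes, the 8820 with at least 10 reads in at least 3 libraries were tested. A single limma fit with an intensity trend over all 12 libraries gave flow cell A against the mean of flow cells B and C, and B against C. Traits were matched by cat number to the paper's description of the cats. Spearman's rho was tested two-sided by exact permutation over cats, or by 100000 random permutations for 10 cats. Adjusted p-values are Benjamini-Hochberg values over all genes tested. These p-values rest on the spread between cats, with 1 library each, which for the flow cell tests is the spread within flow cells. No cat was run again on another flow cell, so variation between runs does not enter them. The 10 genes, the related genes and the marker lists were chosen with earlier results of these data known. By rule, the text named all 10 genes, up to 3 related genes in each direction with the largest log2 difference among those called, and the 5 genes most like TTN and like the mean of the 10 by Pearson's r. CRYAB, TRIM55, SMPX, RBM20 and MYL3 were named after their values were seen.

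Alternatives were other scalings, pseudocounts of 0.5 and 2, other filters, edgeR, DESeq2, a barcode block, each library left out and the libraries labelled cats 22 and 29 left out or entered. Each library held 789257 to 2263110 reads, and of the 10 genes MYPN had the fewest, which makes its counting error the largest. The limma and edgeR tests of flow cell A against the others were tried on simulated data first. So was the Spearman permutation test, over 9 cats. The other tests were not tried in this way. Software versions were R 4.3.3, limma 3.58.1, edgeR 4.0.16, DESeq2 1.42.0, Python 3.11.15, scipy 1.17.1, numpy 2.4.6, pandas 2.3.3 and matplotlib 3.10.9.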

Additional observations from a re-analysis of the deposited data

Results flagged for a closer look

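In flow cell B, TTN was 2055 in cat 15 and 2642 to 2743 in the other 3 libraries, and the gap was 0.854 of the range of the group. This was the 1 library far from the others among 30 groups of 4 libraries (10 genes on 3 flow cells), a test that flags about 1 in 20 groups by chance.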

How the results depend on the processing

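The 474 genes called on flow cell A became 102 with reads not scaled, 269 with TTN as the reference, 832 with DESeq2, 255 without the libraries labelled cats 22 and 29, 147 against flow cell C alone and 0 without cats 11 and 31, and 54 to 529 when 1 library was left out (54 without cat 11, 165 without cat 31, 283 without cat 15 and 314 without cat 29). The barcode as a replicate block gave 569 and changed no call of the 10 genes. The alternatives of flow cell A against B or C alone, those without cats 11 and 31, the age slope with log2 reads and all for the related genes were chosen after seeing the data. Between flow cells B and C the 0 calls became 5 with unscaled reads, 2 with TTN as the reference, 1 with a pseudocount of 2, 23 with DESeq2, 1 without cats 22 and 29, and 0 to 2 with 1 library left out (2 without cat 23 or 29, 1 without cat 30, 31 or 35). For adipocyte percentage, 0 to 1 gene was called with 1 cat left out (1 without cat 11). Of the 34 related genes, 6 were called, and 11 with the barcode block, 3 without cats 22 and 29, 2 against flow cell B alone, 3 against flow cell C alone, 0 without cats 11 and 31, and 0 to 8 with 1 library left out (0 without cat 11, 1 without cat 31, 3 without cat 15). The cause of these changes was not tested. Where libraries were left out, the number of libraries was also smaller.

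TCAP kept its direction in all 26 alternatives and was not called with unscaled reads (-1.16, adjusted p = 0.0749, limma with Benjamini-Hochberg adjustment) or without cats 11 and 31. LDB3 kept its direction in all 26 and lost its call in 13. The sign of uncalled differences changed for TTN without cat 23 (-0.0083), cat 30 (-0.051) or cat 15 (-0.00094) and against flow cell B alone (-0.0093), with a range of -0.051 to 0.16 over 12 libraries left out in turn, and without cats 11 and 31 for CSRP3 (-0.22), NRAP (-0.27) and NEBL (0.056). Unscaled reads moved the median of all genes on flow cell A from 0.03 to 0.41 on the log2 scale, and the other scalings by less than 0.1. NRAP and CSRP3 with age and MYOZ2 with adipocyte percentage kept their sign in all 16 alternatives and passed the adjusted test in none. Pairs of the 10 genes with r of at least 0.7 numbered 6, and 5 to 9 under the alternatives. Depth limits MYPN most, with 37 to 320 reads per library.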
